A study of Homo sapiens with 11 samples.

Results

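The mRNAs of the aminoacyl-tRNA synthetases were followed in human cancer cells that had been transfected with a mimic of the microRNA miR-365a-3p. The genes were taken by their symbols: EPRS, FARSA, FARSB, and every symbol made of a one-letter amino acid code and ARS, with or without a closing 2. This rule found 36 of the 31325 gene symbols measured, 20 for cytosolic enzymes and 16, with symbols ending in 2, for mitochondrial enzymes. GARS and KARS each serve both compartments and were counted with the cytosolic enzymes. The letter E was not among the codes, so EARS2, the mitochondrial glutamyl-tRNA synthetase, was not a member.

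RNA was measured in 4 groups on 11 Illumina HumanHT-12 BeadChips, single-colour arrays with bead-bound probes. MDA-MB-231 cells, a basal-like human breast cancer line, received miR-365a-3p (3 arrays) or a control miRNA (3 arrays), and ovarian cancer cells of the human line SKOV3, given in the methods as its derivative SKOV3.ip1, received miR-365a-3p (3 arrays) or the control miRNA (2 arrays). The labels place the RNA 48 h after transfection and the design text 24 h, and both lines are single lines with no further genetic change stated. No source says that replicates came from separate cultures, so p-values measure the spread between these arrays, which may be technical.

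A synthetase joins an amino acid to its tRNAs, and without this step neither the cytosolic nor the mitochondrial ribosome can use that amino acid. Nuclear genes encode the enzymes of both compartments, and most amino acids have a separate gene for each. Several cytosolic enzymes sit together in the multisynthetase complex, and many cytosolic synthetase genes are known targets of the transcription factor ATF4, which is switched on by amino acid shortage and other stress.

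The mature sequence of the mimic is shown because bases 2 to 8, the seed in capitals, pair with target mRNAs. It was taken from RefSeq (GRCh38.p14, chr16:14309340-14309361, plus strand).
hsa-miR-365a-3p: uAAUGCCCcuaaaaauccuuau
Promoter windows of 1 cytosolic and 1 mitochondrial gene are shown because these genes changed and hold a match, in capitals, to the C/EBP-ATF composite motif TGATGNAA on 1 of the strands. Each window runs from 250 bases before to 50 bases after the transcription start, on the strand of the gene (RefSeq, GRCh38.p14). They are MARS at chr12:57487818-57488117 (plus strand) and YARS2 at chr12:32755848-32756147 (minus strand).
MARS: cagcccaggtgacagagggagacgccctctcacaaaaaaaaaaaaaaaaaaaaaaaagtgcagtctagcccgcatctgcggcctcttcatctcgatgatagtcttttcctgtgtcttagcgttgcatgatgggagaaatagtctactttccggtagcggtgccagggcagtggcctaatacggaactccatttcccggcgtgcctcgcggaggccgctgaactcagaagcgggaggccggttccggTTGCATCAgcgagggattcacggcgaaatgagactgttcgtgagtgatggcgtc
YARS2: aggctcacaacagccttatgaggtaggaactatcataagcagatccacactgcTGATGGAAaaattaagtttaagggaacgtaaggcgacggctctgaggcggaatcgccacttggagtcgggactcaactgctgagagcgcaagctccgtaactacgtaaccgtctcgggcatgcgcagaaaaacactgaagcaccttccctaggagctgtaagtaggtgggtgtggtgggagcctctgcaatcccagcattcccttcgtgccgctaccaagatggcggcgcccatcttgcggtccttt

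Values are log2 signals after quantile normalization, and the same symbol was compared between groups, never one symbol with another. A gene was called changed at a Benjamini-Hochberg adjusted p under 0.05 from limma, adjusted over all 31325 symbols. The median of all symbols was 7.35 to 7.41 on the deposited arrays, but the upper part differed with treatment. In MDA-MB-231 the 75th percentile was 7.56 to 7.65 with miR-365a-3p and 7.86 to 7.93 in controls. In SKOV3 it was 7.67 to 7.80 and 7.98 to 8.04. Quantile normalization removed this difference, and its part in the results was not tested beyond the other scalings. Of the 36 members, 29 had a mean above 8, and only FARSB had a mean below the median of all means (percentile 43.1). Of 6 markers of SKOV3 cells, 5 were lower in MDA-MB-231 controls, among them ERBB2 (log2 difference -3.26) and EPCAM, but of 6 markers of MDA-MB-231 cells 0 differed between the controls by the limma test (4 at an unadjusted p under 0.05), and VIM was at 13.79 and 13.70. The arrays of replicate 1 stood apart within the miR-365a-3p groups: they were the lowest of the 3 arrays for 17 of 20 cytosolic synthetases in MDA-MB-231 and 14 of 20 in SKOV3. Over 6853 symbols with a mean above 8, the deviations of both replicate 1 arrays from their group means had r = 0.70 across genes, which are not independent. Replicates 2 and 3 had 0.31 and 0.34, values tied to the first because the deviations of a group sum to 0. The part of the replicate 1 arrays in the results was not tested beyond leaving each array out.

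Cytosolic synthetase mRNAs were lower after miR-365a-3p in MDA-MB-231 cells. By the limma test 12 of 20 fell, 0 rose (1 at an unadjusted p under 0.05) and 8 were not called, while 11.7% of all symbols fell and 14.4% rose (26.1% called in all). The falls were GARS, AARS, EPRS, YARS, IARS, QARS, MARS, WARS, LARS, SARS, VARS and CARS. The median log2 fold change of the 20 was -0.58, against 0.0064 over all symbols and 0.17 over the symbols with a mean above 8, of which 26.2% fell. An array signal is relative to the other RNAs of the sample, so less of an mRNA per cell and fewer cells that carry it cannot be told apart. The marker lists moved beside this fall: of the 6 markers of MDA-MB-231 cells, AXL (log2 fold change -3.80), CD44 (-2.52) and MSN (-1.62) fell in MDA-MB-231, and the same 3 fell in SKOV3. Their mean log2 signal over the 6 went from between 12.03 and 12.19 on the control arrays to between 10.32 and 10.85 in MDA-MB-231, and from between 11.95 and 11.96 to between 10.51 and 11.22 in SKOV3. Of the 6 SKOV3 markers, EPCAM rose by 0.81 and KRT8 by 0.86 in MDA-MB-231, and 4 were not called. The log2 fold changes there were negative for 3 of the 6 and positive for 3. The mean over the 6 went from between 8.32 and 8.49 to between 8.66 and 8.74 in MDA-MB-231. On the deposited values 1 of the 6 rose and 1 fell in this line. With each array centred on its median 2 rose and 1 fell. In SKOV3, ERBB2 fell and 5 of the 6 were not called. Of 4 blood and immune markers 0 were called in either line (0 at an unadjusted p under 0.05), with means over the list from 7.28 to 7.35 on all arrays. The part of the marker changes in the result was not tested. Without miR-365a-3p replicate 1, 10 of the 20 fell and 1 rose.

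GARS, the glycyl-tRNA synthetase of cytosol and mitochondria, had the largest fall. Its log2 signal was 12.22, 12.25 and 12.38 on the 3 MDA-MB-231 control arrays and 9.53, 10.28 and 10.27 on the miR-365a-3p arrays. In SKOV3 it was 10.05 and 10.18 in the controls and 8.94, 9.12 and 9.15 with miR-365a-3p. Each miR-365a-3p array lay below each control array in both lines. The log2 fold change was -2.26 ± 0.18 (SE, 3 against 3 arrays, limma adjusted p = 6.09e-05) in MDA-MB-231 and -1.05 ± 0.20 (3 against 2 arrays, adjusted p = 0.0096) in SKOV3. GARS was the only cytosolic member called lower in both lines, where 5.39% of all symbols were lower in both. FARSLB, a row outside the rule with an older symbol of FARSB, was called lower in both as well. The SKOV3 call was lost without control replicate 1 (adjusted p = 0.0537) or control replicate 2 (adjusted p = 0.0915).

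AARS and EPRS followed. AARS, the alanyl-tRNA synthetase, measured 11.83, 11.31 and 12.19 in MDA-MB-231 controls and 9.37, 9.98 and 10.15 with miR-365a-3p. EPRS, which carries the glutamyl- and the prolyl-tRNA synthetase in 1 protein, measured 11.40, 11.08 and 11.17 in controls and 8.86, 9.51 and 9.92 with miR-365a-3p. Neither gene's groups overlapped. The log2 fold changes were -1.94 ± 0.32 for AARS (adjusted p = 0.00217) and -1.79 ± 0.42 for EPRS (adjusted p = 0.0121). In SKOV3, AARS measured 11.28 and 11.13 in controls and 9.71, 10.78 and 10.33 with miR-365a-3p, and its difference of -0.93 ± 0.36 was not called (adjusted p = 0.139).

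Among the other falls in MDA-MB-231, YARS (tyrosine) changed by -1.56, IARS (isoleucine) by -1.30, QARS (glutamine) by -1.19, MARS (methionine) by -1.13, WARS (tryptophan) by -1.01, SARS (serine) by -0.75 and VARS (valine) by -0.42 on the log2 scale, with limma adjusted p from 9.86e-05 for MARS to 0.00917 for VARS. LARS, for leucine, went from a mean of 10.17 ± 0.40 (SD, n = 3) to 9.17 ± 0.42 (limma adjusted p = 0.0384). CARS, for cysteine, had the smallest called fall, of -0.22. The calls of LARS and CARS were the least stable: LARS lost its call in 10 of 19 alternatives (adjusted p up to 0.134), among them those without MDA-MB-231 miR-365a-3p replicate 1 or 2, MDA-MB-231 control replicate 1 or 3, SKOV3 miR-365a-3p replicate 3 or either SKOV3 control. CARS lost its call in 12 of 19 (adjusted p up to 0.182), among them those without any one of the MDA-MB-231 arrays (0.0556 to 0.13), SKOV3 miR-365a-3p replicate 3 or either SKOV3 control. Those not called were TARS (threonine), HARS (histidine), DARS (aspartate), NARS (asparagine), FARSA and FARSB (both subunits of the phenylalanine enzyme), KARS (lysine) and RARS (arginine), with log2 fold changes from -0.27 for TARS to 0.38 for RARS. A result that misses the threshold does not show that a gene did not change. FARSB was near the floor of the arrays, and a second row, FARSLB, carries an older symbol of the same gene and lies outside the rule. FARSLB had a high signal and fell by 0.77 in MDA-MB-231 (adjusted p = 0.00267) and by 0.60 in SKOV3 (adjusted p = 0.0276).

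**Figure D1:**
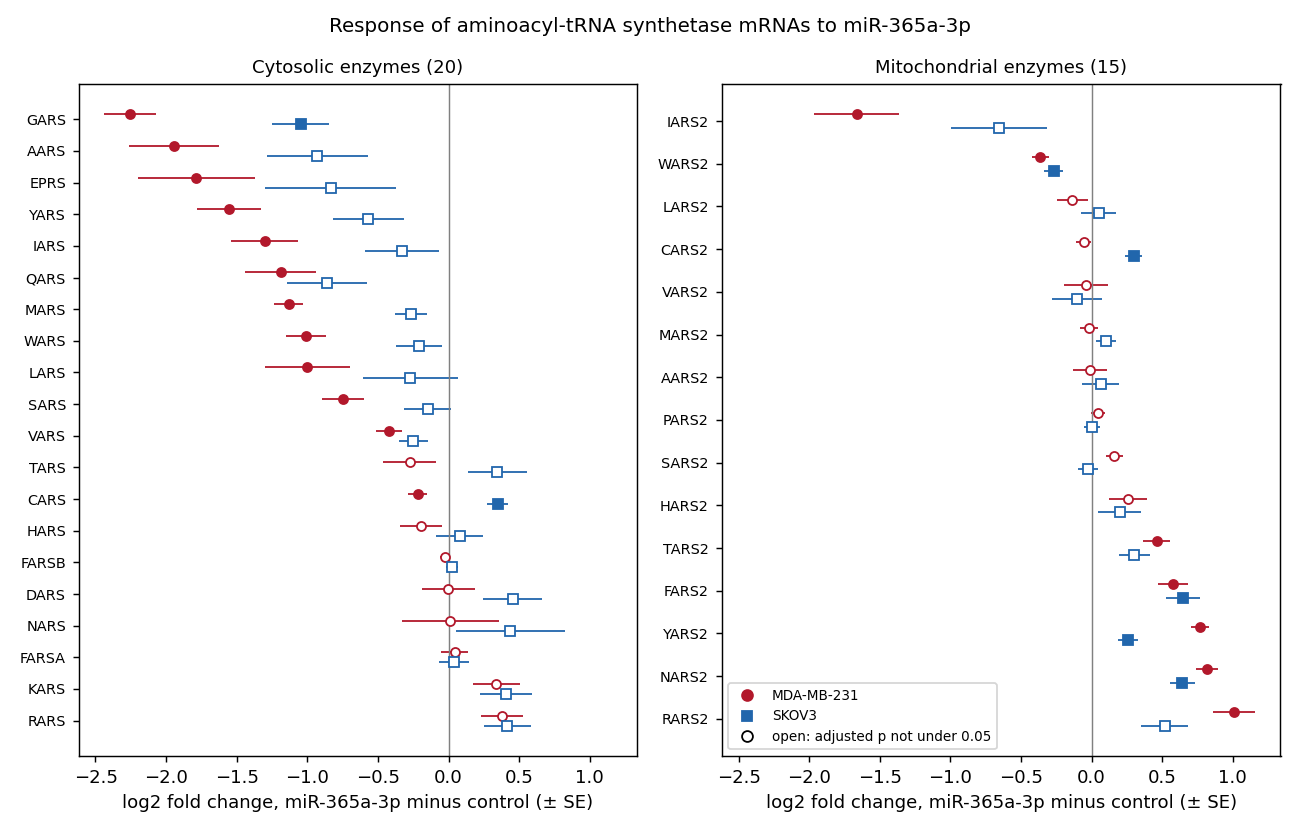
Log2 fold change (miR-365a-3p minus control) of synthetase genes with its standard error, for the 20 cytosolic enzymes (left) and 15 mitochondrial enzymes (right), in MDA-MB-231 (red circles) and SKOV3 (blue squares). Filled symbols have a limma adjusted p under 0.05. The filled red circles of the cytosolic enzymes lie at -0.22 or lower, and filled symbols of the mitochondrial enzymes lie on both sides of 0.

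In SKOV3 cells fewer cytosolic members were called: GARS fell, CARS rose, and 18 of 20 were not called. Of all symbols 7.11% fell and 7.25% rose in this line. The median of the 20 was -0.18. Of the members that fell in MDA-MB-231, all but CARS had a mean difference below 0 in SKOV3 too, from -1.05 for GARS to -0.15 for SARS. QARS at -0.86 (adjusted p = 0.0823) and EPRS at -0.83 (adjusted p = 0.345) were not called. For EPRS, SKOV3 controls measured 10.41 and 10.56 and miR-365a-3p arrays 8.65, 10.36 and 9.94, so that replicate 1 lay far below the other miR-365a-3p arrays. With either SKOV3 control array left out, limma called 0 of 20 cytosolic members in SKOV3, and without MDA-MB-231 miR-365a-3p replicate 1 it called 4. With all arrays 2 of the 20 were higher and 5 lower at an unadjusted p under 0.05.

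The difference between the responses of the cell lines was tested as an interaction. It was called for 2 cytosolic members, MARS and CARS, both lower in MDA-MB-231, and for 1 mitochondrial member, YARS2, while 2.54% of all symbols were called (1.24% higher and 1.30% lower in MDA-MB-231). MARS, the methionyl-tRNA synthetase that charges the initiator tRNA as well, measured 9.88, 9.80 and 9.94 in MDA-MB-231 controls and 8.48, 8.81 and 8.92 with miR-365a-3p. In SKOV3 it measured 8.84 and 8.91 in controls and 8.58, 8.55 and 8.69 with miR-365a-3p. The miR-365a-3p arrays were the lower ones in both lines with no overlap, by 1.13 in the first and 0.27 in the second, and the SKOV3 difference was not called (adjusted p = 0.184). The difference between the lines was -0.87 ± 0.15 (limma adjusted p = 0.0223). It was not called without MDA-MB-231 control replicate 3 (adjusted p = 0.0578), SKOV3 miR-365a-3p replicate 3 (0.0577), or SKOV3 control replicate 1 (0.117) or 2 (0.0976). With the replicate number as a block within each line, the difference was called for none of MARS (adjusted p = 0.146), CARS (0.167) and YARS2 (0.18). A block shared by the lines was added after the data were seen, because same-numbered miR-365a-3p arrays had correlated deviations. These correlations do not by themselves show that the arrays pair by number. With the shared block limma called MARS (-0.81, adjusted p = 0.031) and CARS (-0.56, 0.039) but not YARS2 (0.50, 0.066).

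CARS moved in opposite directions, a pattern that 0.0734% of all symbols showed. In MDA-MB-231 it measured 9.42, 9.27 and 9.27 in controls and 9.06, 9.10 and 9.14 with miR-365a-3p. In SKOV3 it measured 7.85 and 7.81 in controls and 8.28, 8.03 and 8.22 with miR-365a-3p. The miR-365a-3p arrays lay below the controls in MDA-MB-231 and above them in SKOV3, without overlap. The rise in SKOV3 was 0.35 ± 0.07 (limma adjusted p = 0.0151) and the difference between the lines -0.57 ± 0.10 (adjusted p = 0.0231). The SKOV3 rise was 0.07 on the deposited values, with no further normalization (adjusted p = 0.735), and was not called without SKOV3 control replicate 1 (adjusted p = 0.0764) or replicate 2 (adjusted p = 0.128). The difference between the lines was not called for CARS without MDA-MB-231 miR-365a-3p replicate 1 or 2, SKOV3 miR-365a-3p replicate 3 or either SKOV3 control (adjusted p 0.0554 to 0.129). For GARS it was -1.21 ± 0.27 and was not called with all arrays (adjusted p = 0.0636). Of the 20 cytosolic members, 19 had a mean response that was lower in MDA-MB-231 than in SKOV3, and limma called 2 of the 20. Of 6853 symbols with a mean above 8, 3216 had a lower mean response in MDA-MB-231. The members were measured on the same arrays, so they are not separate observations.

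Mitochondrial synthetase mRNAs moved in both directions. In MDA-MB-231, 5 of 16 rose (RARS2, NARS2, YARS2, FARS2 and TARS2), 3 fell (IARS2 and WARS2 among them) and 8 were not called, and the median log2 fold change was 0.016. In SKOV3, 4 rose (FARS2, NARS2, CARS2 and YARS2), 2 fell (WARS2 among them) and 10 were not called, with a median of 0.084. Of all symbols 14.4% rose and 11.7% fell in MDA-MB-231, and 7.25% and 7.11% in SKOV3. A mean above 8 was found for 11 of the 16. Of all symbols with such a mean, 39% rose and 26.2% fell in MDA-MB-231, and 23.4% and 15.3% in SKOV3. The counts therefore do not set the mitochondrial members apart. NARS2, FARS2 and YARS2 were higher in both lines and WARS2 lower in both, while 5.76% of all symbols were higher and 5.39% lower in both. On the deposited values with no further normalization the balance shifted: 3 rose and 6 fell in MDA-MB-231 (median -0.22), and 1 rose and 2 fell in SKOV3 (median -0.09). With each array centred on its median, 4 rose and 6 fell in MDA-MB-231 (median -0.19) and 1 rose and 2 fell in SKOV3 (median -0.05). The count of 6 in SKOV3 was 3 without SKOV3 control replicate 1 and 1 without SKOV3 control replicate 2.

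NARS2, the mitochondrial asparaginyl-tRNA synthetase, measured 7.66, 7.81 and 7.78 in MDA-MB-231 controls and 8.54, 8.57 and 8.60 with miR-365a-3p. In SKOV3 it measured 7.92 and 7.73 in controls and 8.45, 8.63 and 8.33 with miR-365a-3p. The groups were apart in both lines, with the miR-365a-3p arrays on top. The rises were 0.82 ± 0.08 (limma adjusted p = 0.000151) and 0.64 ± 0.09 (adjusted p = 0.00185). The SKOV3 rise of NARS2 was 0.38 on the deposited values (adjusted p = 0.0807).

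FARS2, the single-chain phenylalanine enzyme of mitochondria, measured 9.07, 8.99 and 8.82 in MDA-MB-231 controls and 9.60, 9.57 and 9.45 with miR-365a-3p. SKOV3 controls measured 8.66 and 8.42 and miR-365a-3p arrays 9.40, 9.01 and 9.16. Again each miR-365a-3p array exceeded each control array. The rises were 0.58 ± 0.11 (limma adjusted p = 0.00435) and 0.65 ± 0.12 (adjusted p = 0.00828), and the second was not called without SKOV3 control replicate 2 (0.54, adjusted p = 0.0963). The MDA-MB-231 rise was 0.33 on the deposited values and was not called there (adjusted p = 0.0606).

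YARS2, which charges mitochondrial tRNA with tyrosine, measured 9.36, 9.46 and 9.41 in MDA-MB-231 controls and 10.09, 10.25 and 10.19 with miR-365a-3p. SKOV3 controls measured 10.79 and 10.95 and miR-365a-3p arrays 11.23, 11.12 and 11.04. The groups did not overlap in either line. The rise was 0.77 ± 0.06 in MDA-MB-231 (limma adjusted p = 7.34e-05) and 0.26 ± 0.07 in SKOV3 (adjusted p = 0.0456), and the difference between the lines 0.51 ± 0.10 (adjusted p = 0.0322). The SKOV3 call was lost in 15 of 19 alternatives (adjusted p up to 0.334 without SKOV3 control replicate 1), and held with a single array left out only for MDA-MB-231 miR-365a-3p replicate 1 and SKOV3 miR-365a-3p replicate 3. The call for the difference between the lines was lost in 14 of 18 (adjusted p up to 0.423), and held with a single array left out only for replicate 1 of miR-365a-3p in either line.

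RARS2, for mitochondrial arginine, had the largest rise in MDA-MB-231, from 8.75, 8.41 and 8.86 in controls to 9.87, 9.59 and 9.59 with miR-365a-3p. The log2 fold change was 1.01 ± 0.15 (limma adjusted p = 0.00123), with no overlap between the groups. In SKOV3, with 9.33 and 9.35 in controls against 10.13, 9.65 and 9.79, the difference of 0.52 ± 0.17 was not called (adjusted p = 0.0764). TARS2, for threonine, rose by 0.46 in MDA-MB-231 (adjusted p = 0.00754), a value that was 0.11 on the deposited values (adjusted p = 0.601). CARS2, for cysteine, rose in SKOV3 by 0.30 (adjusted p = 0.0124) and had a difference of -0.06 in MDA-MB-231. The CARS2 rise was not called without SKOV3 control replicate 2 (0.22, adjusted p = 0.124) or on the deposited values (0.06, adjusted p = 0.75).

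**Figure D2:**
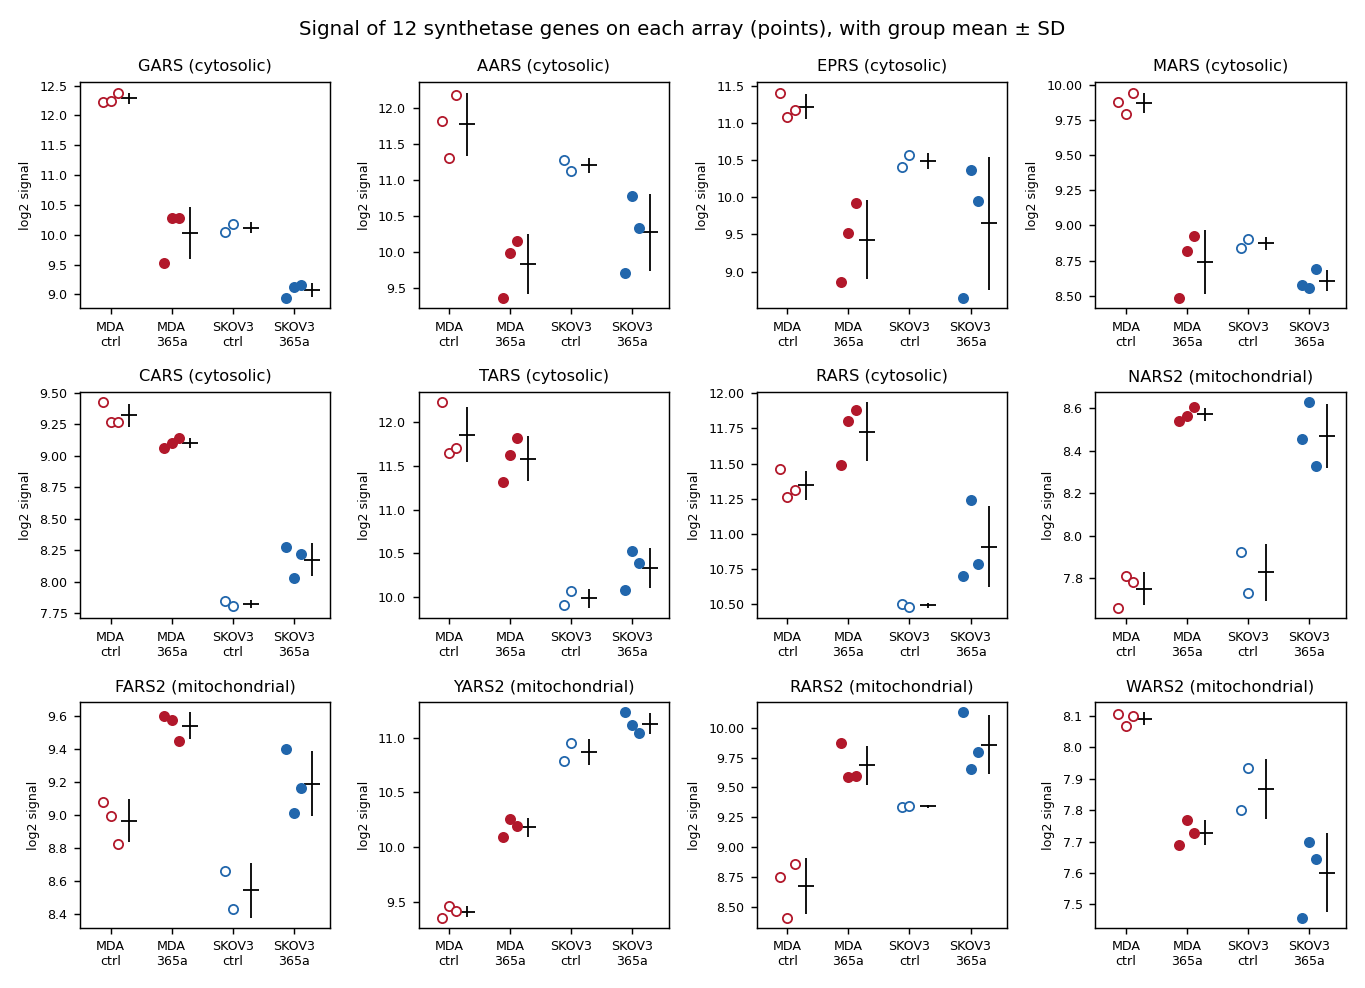
Log2 signal of 12 synthetase genes on each of the 11 arrays (points), by group, with the group mean and SD beside the points (3 arrays a group, 2 for the SKOV3 controls); open points are control arrays and filled points miR-365a-3p arrays, and each panel has its own axis. The group means of GARS, AARS, EPRS, MARS and WARS2 are lower with miR-365a-3p in both cell lines, those of NARS2, FARS2, YARS2 and RARS2 are higher, and CARS goes down in MDA-MB-231 and up in SKOV3.

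The mitochondrial falls were led by IARS2, the isoleucine enzyme, with -1.66 ± 0.30 in MDA-MB-231 (limma adjusted p = 0.0036) and -0.66 ± 0.34 in SKOV3, where it was not called (adjusted p = 0.296). WARS2, for tryptophan, measured 8.10, 8.07 and 8.10 in MDA-MB-231 controls and 7.69, 7.77 and 7.73 with miR-365a-3p, and 7.80 and 7.93 against 7.46, 7.70 and 7.64 in SKOV3. WARS2 fell by 0.36 (adjusted p = 0.00233) and by 0.27 (adjusted p = 0.0311), and the second call was lost without MDA-MB-231 miR-365a-3p replicate 3 (adjusted p = 0.0504) or SKOV3 control replicate 1 (adjusted p = 0.0519) or 2 (adjusted p = 0.262). The exact two-sided permutation of treatment within the lines gave its smallest possible p, 0.005 and not adjusted, for 9 of the 36 members, among them GARS, MARS, QARS, NARS2, FARS2, YARS2, RARS2 and WARS2. Of all symbols 15.3% reached this p, and of those with a mean above 8, where most members lie, 39.7%, so the count does not set the members apart.

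AARS2, LARS2, MARS2, PARS2, VARS2, SARS2 and HARS2 were not called in either line, and their log2 fold changes lay between -0.14 (LARS2, MDA-MB-231) and 0.26 (HARS2, MDA-MB-231). PARS2, the prolyl enzyme, had a low signal (63.7th percentile of the means). EARS2, outside the rule, differed by -0.02 in MDA-MB-231 and 0.10 in SKOV3 and was not called.

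The enzymes of the same amino acid were set side by side in 16 pairs covering 15 amino acids, in which FARS2 was paired with both FARSA and FARSB, and PARS2 with EPRS. These are differences of fold changes between probes, and they are given without a test. The cytosolic log2 fold change was below the mitochondrial one in 15 of 16 pairs in MDA-MB-231 and in 12 of 16 in SKOV3. The largest gaps in MDA-MB-231 were those of tyrosine, with -1.56 for YARS against 0.77 for YARS2, of alanine, with -1.94 for AARS against -0.01 for AARS2, and of proline, with -1.79 for EPRS against 0.04 for PARS2. Among these 16 pairs the exception in MDA-MB-231 was isoleucine, where both enzymes fell. A further pair is not reported here and is left out of these counts, so they do not cover every pair. HARS and HARS2 are neighbouring genes, and neither was called in either line.

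**Figure D3:**
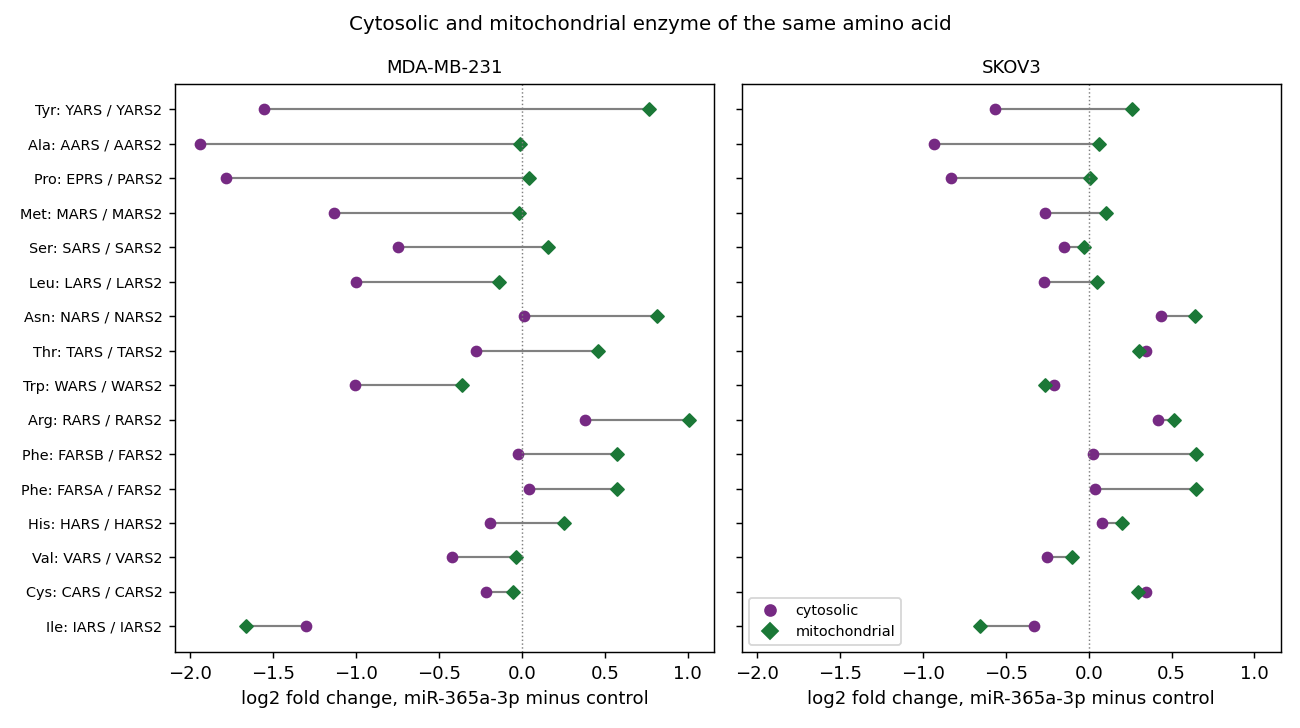
Log2 fold change (miR-365a-3p minus control) of the cytosolic (purple circles) and mitochondrial (green diamonds) enzyme of the same amino acid, joined by a line, in MDA-MB-231 (left) and SKOV3 (right). The circle lies to the left of the diamond in 15 of the 16 pairs shown in MDA-MB-231 and in 12 of 16 in SKOV3. A further pair is not shown.

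Synthetases fall into classes I and II by the fold of their catalytic domain. Of the 10 cytosolic class I members, 9 fell in MDA-MB-231 (RARS was not called), with a median of -1.07. EPRS, which carries both the glutamyl- and the prolyl-tRNA synthetase, was counted in class I only, although PARS2, the mitochondrial prolyl enzyme, is in class II. Of the 10 class II members, GARS, AARS and SARS fell, and the median was -0.11. FARSB entered this count and median by its row near the floor, and FARSLB, the brighter row of the same gene outside the rule, fell by 0.77. No test compared the classes. Of all symbols 11.7% fell in MDA-MB-231, and of those with a mean above 8, 26.2%. Of the 8 enzymes of the multisynthetase complex 5 fell in MDA-MB-231 (EPRS, IARS, LARS, MARS and QARS, median -1.07) and KARS, RARS and DARS were not called, while 7 of the 12 cytosolic members outside the complex fell (median -0.35). Of the 3 scaffold genes of this complex, 2 rose in MDA-MB-231 and 1 in SKOV3. Among all symbols 14.4% rose in MDA-MB-231 and 7.25% in SKOV3, and among those with a mean above 8, 39% and 23.4%. EEF1E1 rose by 0.97 in MDA-MB-231 (limma adjusted p = 0.00242) and 1.08 in SKOV3 (adjusted p = 0.00507), AIMP1, listed under its older symbol SCYE1, rose by 0.98 in MDA-MB-231 (adjusted p = 0.00522), and AIMP2 differed by -0.40 and was not called (adjusted p = 0.0582).

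**Figure D4:**
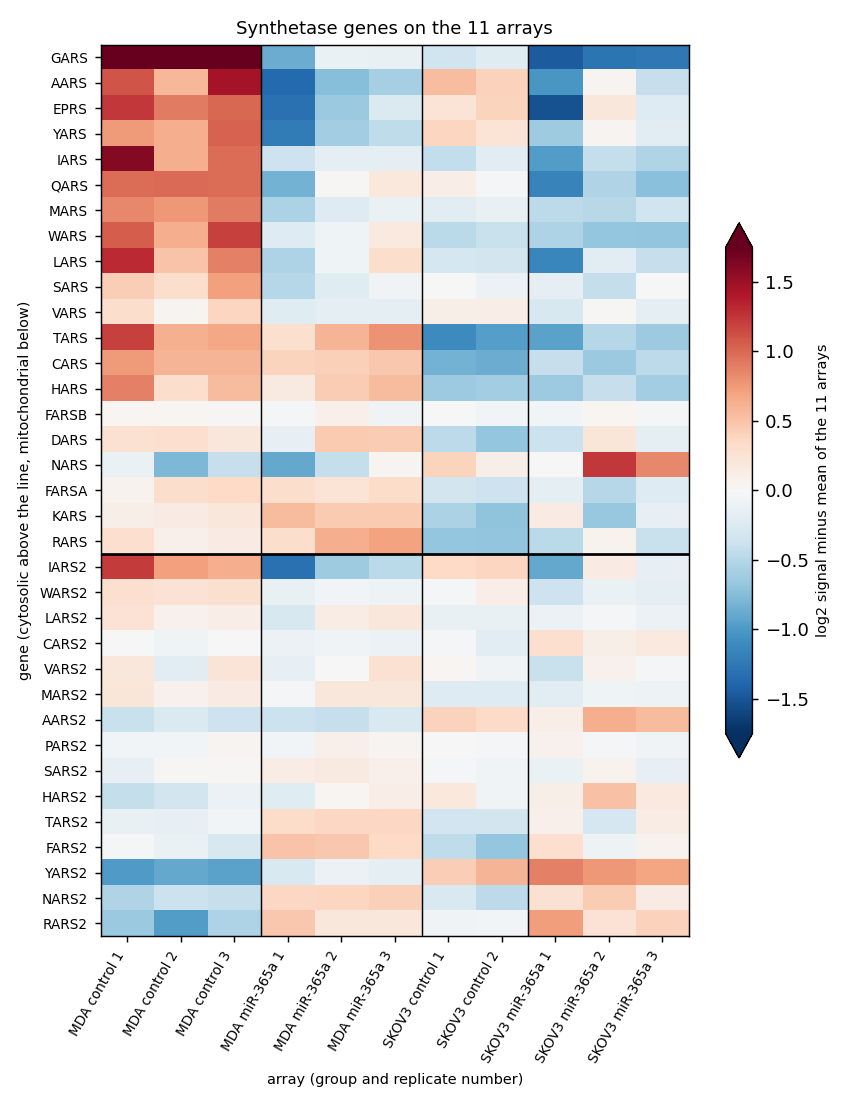
Log2 signal of 35 synthetase genes on each of the 11 arrays, minus the mean of the gene over the arrays (red higher, blue lower, the colour scale is the same in both directions, and GARS exceeds it on the MDA-MB-231 control arrays), with cytosolic genes above the thick line and mitochondrial genes below, each ordered by the MDA-MB-231 log2 fold change. The upper rows are red on the 3 MDA-MB-231 control arrays and blue on both replicate 1 miR-365a-3p arrays.

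The control arrays were compared to see where the cell lines started. Of the 20 cytosolic members, limma called 12 higher in MDA-MB-231 than in SKOV3 controls and 0 lower (14 and 0 at an unadjusted p under 0.05), whereas 7.76% of all symbols were higher and 8.34% lower. Of the symbols with a mean above 8, where 18 of the 20 lie, 20% were higher and 19.2% lower. The median difference was 0.84, against 0.0030 over all symbols. GARS was 2.17 ± 0.20 higher (limma adjusted p = 0.000127), with 12.22, 12.25 and 12.38 against 10.05 and 10.18. TARS, the threonine enzyme, measured 12.22, 11.65 and 11.70 in MDA-MB-231 controls and 9.91 and 10.06 in SKOV3 controls, a difference of 1.87 ± 0.21 (adjusted p = 0.000343). The miR-365a-3p arrays of TARS were at 11.31, 11.62 and 11.82 in MDA-MB-231 and at 10.08, 10.53 and 10.39 in SKOV3, so that the lines stayed apart for TARS. CARS was 1.49 ± 0.07 higher (adjusted p = 3.74e-06). The others that were higher were IARS, WARS, LARS, HARS, MARS, RARS, DARS, KARS and FARSA, by 1.39 down to 0.58. The count was 7 without SKOV3 control replicate 1, when IARS, LARS, RARS, DARS and KARS were not called (adjusted p 0.0535 to 0.184), and 8 without SKOV3 control replicate 2. With an MDA-MB-231 control left out, DARS (replicate 1, 2 or 3), KARS (2 or 3) and LARS (1 or 3) were not called (adjusted p 0.0507 to 0.117).

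Of the 16 mitochondrial members, FARS2 and MARS2 were higher in MDA-MB-231 controls, YARS2, AARS2 and RARS2 were lower, and 11 were not called. Of all symbols 7.76% were higher and 8.34% lower, and of those with a mean above 8, 20% and 19.2%. YARS2 was lower by 1.46 on the log2 scale (difference -1.46 ± 0.07, limma adjusted p = 3.61e-06), with the array values given above. AARS2, the mitochondrial alanine enzyme, measured 7.66, 7.80 and 7.68 in MDA-MB-231 controls and 8.45 and 8.38 in SKOV3 controls, a difference of -0.71 ± 0.13 (adjusted p = 0.00614). RARS2 differed by -0.67 ± 0.17 (adjusted p = 0.0249). No array of one control group entered the range of the other for these 3 genes. The same held for FARSB, with a difference of 0.06 that was not called, so this alone does not set a gene apart. The AARS2 call was lost without SKOV3 control replicate 1 (adjusted p = 0.0618), and that of RARS2 without MDA-MB-231 control replicate 2 (adjusted p = 0.0593), SKOV3 control replicate 1 (adjusted p = 0.128) or SKOV3 control replicate 2 (adjusted p = 0.136). The count of 5 mitochondrial members was 3 without MDA-MB-231 control replicate 2, 1 without SKOV3 control replicate 1 and 2 without SKOV3 control replicate 2. FARS2 lost its call in 12 of 18 alternatives (adjusted p up to 0.364). The MDA-MB-231 controls served both this comparison and that of the response, so that the 2 sets of values share these arrays. GARS was at a mean of 10.03 ± 0.43 (SD, n = 3) in MDA-MB-231 with miR-365a-3p and of 10.12 ± 0.09 (n = 2) in SKOV3 controls, which were not tested against each other.

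**Figure D5:**
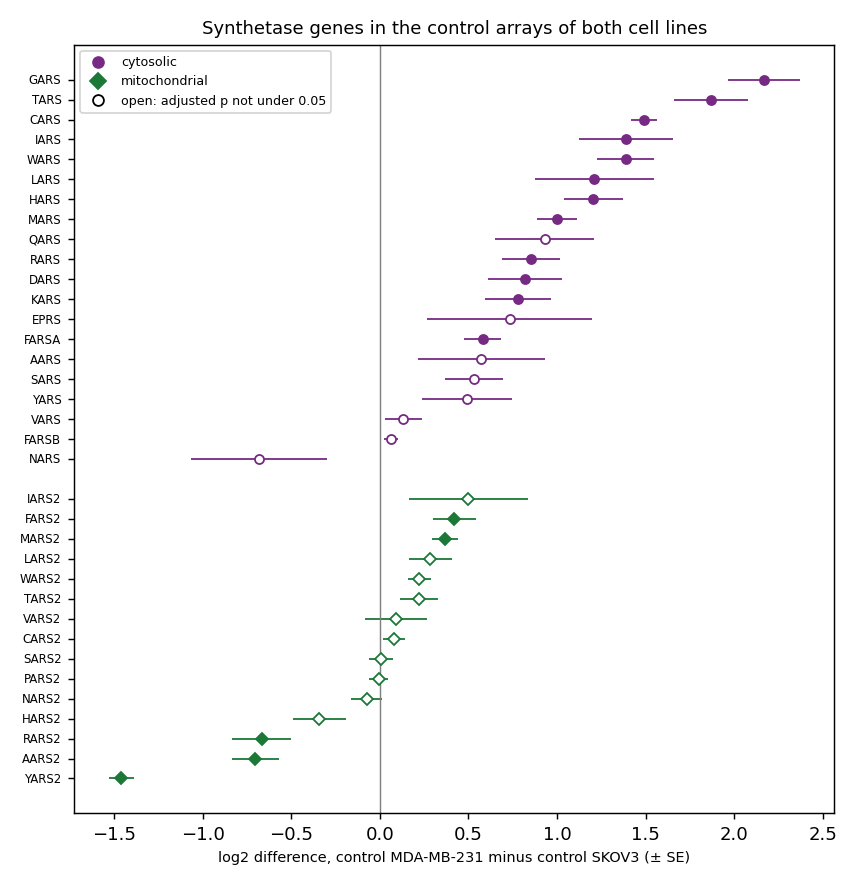
Log2 difference between the control arrays (MDA-MB-231 minus SKOV3) of 35 synthetase genes with its standard error, cytosolic enzymes as purple circles and mitochondrial enzymes as green diamonds; filled symbols have a limma adjusted p under 0.05. The 12 filled circles lie between 0.58 and 2.17, and the 5 filled diamonds lie between -1.46 and 0.42.

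The RefSeq promoter windows of the members, those shown above included, were searched for TGATGNAA on both strands, the only motif searched. A RefSeq window was found for 16 cytosolic and 13 mitochondrial members, and none for the others, among them DARS, LARS, VARS, YARS, AARS2 and VARS2. Some members had more than 1 window, and a gene counted if any of its windows held the motif. The motif was present for 7 of the 16 cytosolic members with a window (among them CARS, IARS, MARS, NARS and TARS). It was present for 1 of the 13 mitochondrial ones (YARS2), while 4.46% of 27305 genes held it. In MDA-MB-231, 5 of the 7 cytosolic members with the motif fell (median -1.13), against 4 of the 9 without it (median -0.19). Of the 4 cytosolic members with no window 3 fell (median -0.71), and YARS2, the mitochondrial member with the motif, rose. Of all symbols 11.7% fell in MDA-MB-231, and of those with a mean above 8, 26.2%. No test compared these sets. The match in MARS lies on the strand opposite to the gene. A match of letters does not show a bound site.

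Other genes of amino acid supply and the ATF4 pathway were taken as a list of 20. ATF4 itself, whose protein is controlled largely at translation, differed by -0.09 in MDA-MB-231 and 0.16 in SKOV3 and was not called. In MDA-MB-231, 12 of 20 fell and 0 rose (13 and 1 at an unadjusted p under 0.05), with a median of -0.55. Of all symbols 11.7% fell and 14.4% rose there, and of those with a mean above 8, 26.2% and 39%. The falls included ASNS, the asparagine synthetase, by 0.75 (limma adjusted p = 0.000152), PSAT1 and PHGDH of serine synthesis by 1.01 and 0.87, TRIB3 by 0.87, and EIF2AK1 and EIF2AK4, kinases of the stress response, by 1.33 and 1.08. DDIT3, a stress-induced transcription factor, was at 0.48 and not called (adjusted p = 0.0614). In SKOV3, 5 fell (EIF2AK1, EIF2AK2, EIF2AK4, PHGDH and CEBPB) and 1 rose (MTHFD2), with a median of -0.01. Of all symbols 7.11% fell and 7.25% rose in SKOV3, and of those with a mean above 8, 15.3% and 23.4%. On the deposited values 14 of the 20 fell in MDA-MB-231, and in SKOV3 7 fell and 0 rose, with a median of -0.26. The difference between the lines was called for 5, PPP1R15A, TRIB3, ASNS, PHGDH and VLDLR, all lower in MDA-MB-231, as were 1.30% of all symbols and 2.58% of those with a mean above 8. In the controls 9 of the 20 were higher in MDA-MB-231, with ASNS higher by 2.15 and ATF4 by 1.18, and 1 was lower (EIF2AK2). Of all symbols 7.76% were higher and 8.34% lower, and of those with a mean above 8, 20% and 19.2%.

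Of the other mitochondrial translation genes several rose and 0 were called lower, with fewer rises under other scalings. Among all symbols 14.4% rose and 11.7% fell in MDA-MB-231, and 7.25% and 7.11% in SKOV3. Among those with a mean above 8, 39% rose and 26.2% fell in MDA-MB-231, and 23.4% and 15.3% in SKOV3. Of 4 genes that make mitochondrial glutaminyl- and formylmethionyl-tRNA, 3 rose in MDA-MB-231 and 2 in SKOV3, with 0.95 (limma adjusted p = 7.39e-05) and 0.84 (adjusted p = 0.000551) for GATB, listed as PET112L. Of 9 mitochondrial initiation, elongation and release factors, 6 rose and 0 fell in MDA-MB-231, and 3 rose and 0 fell in SKOV3 (6 and 0 in either line at an unadjusted p under 0.05), among them MTIF2, an initiation factor, by 1.00 and 0.79, and MRRF, the ribosome recycling factor, by 0.52 and 0.44. On the deposited values the rises in MDA-MB-231 were 1 of the 4 and 3 of the 9, and in SKOV3 1 of the 4 and 1 of the 9. Of 7 cytosolic elongation genes, EEF1B2 rose and EEF1A1 and EEF1A2 fell in MDA-MB-231. Among 7 relatives of the synthetases outside the rule, YRDC, which takes part in a tRNA modification, fell by 1.15 and by 1.53 (adjusted p = 0.00131 in SKOV3), PSTK and SEPSECS, of selenocysteinyl-tRNA synthesis, rose in MDA-MB-231 by 0.88 and 0.11, and 4 of the 7 were called in neither line.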

How the data were processed

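Labelled cRNA from 11 samples in 4 groups was measured on Illumina BeadChips. Per their methods, the authors used quantile normalization in lumi, and they deposited 1 value on a log2 scale for each gene symbol and array. Whether a log2 or a variance-stabilizing transformation came first, and how probes were merged into 1 symbol and background was treated, are not given in the sources used here. The deposited columns did not share 1 distribution and were quantile normalized across the 11 arrays. All 31325 symbols were fitted with 4 group means in limma 3.58.1 (R 4.3.3; lmFit, contrasts, eBayes), with Benjamini-Hochberg adjustment over all symbols and a threshold of 0.05. The exact permutation used all 200 arrangements of treatment within the cell lines, on the mean of both differences, two-sided. The fit was tested on simulated data. Where groups are said not to overlap, the share of all symbols without overlap was not counted. The members and lists were chosen with earlier results of these data known. Values on every array are given for members called in both lines with the same sign and no overlap, with opposite signs, or with a called difference between the lines, for the 3 of each class with the largest called control difference, and, chosen after their values were seen, for AARS and EPRS (FARSLB was named after its values were seen). Symbols were matched to RefSeq names (GRCh38.p14): 18 members carried current symbols, 14 an older symbol and 4 an older symbol of several genes (GARS, MARS, QARS and SARS, taken as the symbol with 1 added). Within a line, same-numbered arrays were not shown to pair (r from -0.12 to 0.23). Across the lines the 3 same-numbered pairs of miR-365a-3p arrays had r from 0.31 to 0.70, and the control pairs 0.12 and -0.13. The deviations of a group sum to 0, so these r are not separate from each other. Arrays of different number were not compared, so pairing by number was not shown. A block shared by the lines was added after the data were seen. Alternatives were other scalings, a replicate block, a filter on the mean, an intensity trend, array weights, separate fits and each array left out. For 1 mitochondrial member values, and for 2 other members the promoter windows, are not reported here; all 3 stay in the counts, except the first in those of the pairs. Seed sites were not searched, since transcript sequences were not used here. The number of arrays limits the precision.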

Additional observations from a re-analysis of the deposited data

Results flagged for a closer look

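For 3 members the response differed between the cell lines by the interaction term of the limma fit. MARS fell further in MDA-MB-231 than its mean moved in SKOV3 (difference -0.87, adjusted p = 0.0223), CARS fell in MDA-MB-231 and rose in SKOV3 (difference -0.57, adjusted p = 0.0231), and YARS2 rose further in MDA-MB-231 (difference 0.51, adjusted p = 0.0322). On the deposited values without further normalization the differences were -0.89, -0.57 and 0.30, and limma called 0 of them (adjusted p = 0.1, 0.0531 and 0.411). With the replicate number as a block within each line 0 were called (adjusted p = 0.146, 0.167 and 0.18), and with a block shared by the lines MARS and CARS were called (adjusted p = 0.031 and 0.039) and YARS2 was not (0.066).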

How the results depend on the processing

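With 19 settings per response, the 12 cytosolic and 8 mitochondrial calls in MDA-MB-231 stayed at 10 to 13 and 8 to 10 under other scalings, filters and weights, and at 10 to 14 and 8 to 9 with an array left out. In SKOV3 the 2 cytosolic calls became 8 with array weights and 1 with the cell lines fitted alone (0 to 4 with an array left out), and the 6 mitochondrial calls became 3 on deposited values, 3 with arrays centred on the median and 1 with the lines fitted alone (1 to 7 with an array left out). The 3 differences between the lines became 0 on deposited values, 1 with centring and 6 with array weights (0 to 3 with an array left out). The 12 cytosolic and 5 mitochondrial differences between the controls ranged over 7 to 14 and 1 to 7 with an array left out. The mitochondrial median was -0.22 and -0.19 in MDA-MB-231 and -0.0905 and -0.0530 in SKOV3 on deposited and on centred values, where falls were 71.2% and 59.1% of all calls in MDA-MB-231 and 78.6% and 67.7% in SKOV3, against 44.8% and 49.5% after quantile normalization. The causes were not tested. With the replicate number as a block, 10 cytosolic and 8 mitochondrial members were called in MDA-MB-231, 1 and 4 in SKOV3, 0 for the difference between the lines, and 12 and 5 between the controls. Within a line the numbers are not shown to pair the arrays (r of their deviations from -0.12 to 0.23 over 6853 symbols). Between the lines the same-numbered miR-365a-3p arrays had 0.70, 0.31 and 0.34, which are tied to each other and do not by themselves show pairing. With a block shared by the lines, added after the data were seen, the counts were 11 and 8 in MDA-MB-231, 2 and 5 in SKOV3, and 2 for the difference between the lines. Of 48 calls for single members, 24 held under all the alternatives listed at the start, and 0 changed direction under them. Members that were not called did change sign: on deposited values 3 of 16 mitochondrial members in MDA-MB-231 (up to 0.26 in size) and 4 of 16 in SKOV3 (up to 0.10), and 2 and 1 of the 20 cytosolic ones.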
